A study of Mus musculus with 16 samples.

Results

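The baseline transcript composition of the mouse heart was read from the 5 wild type hearts of a 16-heart series, across all 14138 genes of the count table that holds them. The members were chosen by label only: every library titled wild type was used, and each was titled as a biological replicate. The labels gave the tissue as heart and the genotype as WT. They gave no age, sex, strain, heart chamber or collection time, and did not say whether these mice carried floxed alleles or Cre. The series as a whole deleted Cpt2 in cardiomyocytes and used Myh6-Cre, a transgene active in heart muscle cells, to delete floxed Usp30. The other 11 hearts were labelled as knockouts of CPT2, alone or together with USP30, and no comparison with them was made here. Total RNA was depleted of ribosomal RNA with Ribo-Zero and made into stranded libraries, so transcripts without a poly(A) tail were also read.

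The heart beats without rest and makes nearly all of its ATP in mitochondria, mainly from fatty acids. Mitochondria carry their own small genome, which encodes 13 proteins of the respiratory chain and the 2 ribosomal RNAs of the mitochondrial ribosome, and all other respiratory chain subunits are encoded in the nucleus. Contraction depends on sarcomeres, in which myosin thick filaments pull on actin thin filaments, titin spans from the Z-disc to the M-band, and calcium released from the sarcoplasmic reticulum through the ryanodine receptor starts each beat. Many of these proteins come in families whose members are used by different muscles, chambers or ages, and the member that is transcribed is a label of the tissue.

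The 5 libraries held between 55905339 counts (replicate 5) and 132762776 counts (replicate 3). Levels are given in 3 ways. A share is the percentage of a library's counts. CPM is counts per 1000000 after scaling by the trimmed mean of M-values (TMM), and was used to compare 1 gene between libraries. TPM is counts per kilobase of merged exons, scaled so that the protein-coding genes of the nucleus sum to 1000000, and was used to compare genes with each other. Errors are SD over the 5 libraries, which may hold technical as well as animal differences. Markers of heart muscle were high in all 5 libraries. The 10 cardiomyocyte markers summed to between 62978 and 71122 CPM, the latter in replicate 5, and the very long Ttn alone averaged 37041 CPM. Endothelial markers summed to between 538 and 674 CPM, and fibroblast markers to between 1480 and 2098 CPM. Scaled by length, the 3 lists summed to means of 99646, 1228 and 4388 TPM. Of 12 lymphocyte markers, 11 were not analysed here, and the remaining one, Ighm, stood between 2.46 and 4.29 CPM. In bulk tissue, fewer cells of a type and less RNA per cell cannot be told apart. 2 libraries stood apart from the other 3. Replicate 1 held Xist and almost no Y-linked transcripts and had the highest atrial markers, and replicate 5, the shallowest, held more titin and more of the transcripts that are annotated as unverified or as intronic. Their values are given beside each result that rests on them.

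Mitochondrially encoded genes took most of the counts of each library. The 27 such genes listed took 60.6% ± 1.84 of all counts (SD, n = 5), with 60.6% in replicate 1, 63.0% in replicate 2, 60.2% in replicate 3, 57.9% in replicate 4 and 61.1% in replicate 5. The 2 mitochondrial ribosomal RNAs accounted for 55.4% ± 1.75 of all counts, and the 13 protein genes for 5.14% ± 0.316. The 12 mitochondrial tRNA genes listed took 0.0108% ± 0.00200. The large ribosomal RNA, mt-Rnr2, alone took 48.5% ± 1.51 of all counts, and the small one, mt-Rnr1, took 6.95% ± 0.253. Per length mt-Rnr2 stood at 3343300 TPM and mt-Rnr1 at 793641 TPM, above the sum of all nuclear protein-coding genes for the larger RNA. Leaving out each library in turn kept the mitochondrial share between 59.96% and 61.2%. Ribosomal RNA had been depleted, and how much of each mitochondrial ribosomal RNA was removed was not tested. These shares therefore need not be those of the tissue. Among protein-coding genes alone the mitochondrial share was 12.1%.

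Among the mitochondrial protein genes, mt-Co1, the catalytic subunit of cytochrome c oxidase (complex IV), was the highest per length, at 207508 ± 15618 TPM and 2.94% of all counts. The complex I subunit mt-Nd1 followed at 80770 ± 7217 TPM and the complex III subunit mt-Cytb at 61842 ± 5786 TPM. The complex I subunits mt-Nd2, mt-Nd4 and mt-Nd5 stood at 26323 ± 3427, 19483 ± 2233 and 17057 ± 1376 TPM. Another complex I gene, mt-Nd6, is transcribed from the other strand and stood at 1557 ± 181 TPM.

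6 genes that lie next to each other on the mitochondrial genome were listed far below mt-Co1, mt-Nd1, mt-Cytb, mt-Nd2, mt-Nd4 and mt-Nd5. They were the complex IV subunits mt-Co2 (2911 ± 577 TPM) and mt-Co3 (2930 ± 992 TPM), the ATP synthase subunits mt-Atp6 (1090 ± 226 TPM) and mt-Atp8 (632 ± 111 TPM), and the complex I subunits mt-Nd3 (420.0 ± 84.8 TPM) and mt-Nd4l (131 ± 24.8 TPM). These RNAs are cut from the same long precursor as mt-Co1. 7 annotated pseudogenes on the minus strand of chromosome 1, between 24611535 and 24616197 on mm10, are copies of the same stretch, and reads from either place cannot be told apart where the letters are identical. The sequences below show this for the first 60 bases of mt-Co3 and its copy Gm28437, and for the place where mt-Co1 and its copy Gm29216 differ. Sequences are from GENCODE M21 transcripts, 5′ to 3′ along the gene, and capitals mark the bases that differ.
mt-Co3, bases 1 to 60: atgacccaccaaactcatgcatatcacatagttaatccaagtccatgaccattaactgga
Gm28437, bases 1 to 60: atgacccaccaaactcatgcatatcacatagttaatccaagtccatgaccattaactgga
mt-Co1, bases 1054 to 1113: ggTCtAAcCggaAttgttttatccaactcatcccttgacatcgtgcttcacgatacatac
Gm29216, the aligned bases: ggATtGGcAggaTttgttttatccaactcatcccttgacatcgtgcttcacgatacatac

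Gm28437 was identical to mt-Co3 over all 783 bases compared, Gm28661 to mt-Co2 over 681 bases, Gm10925 to mt-Atp6 over 678 bases, Gm28439 to mt-Nd4 over 876 bases and Gm10222 to mt-Nd4l over 294 bases. Gm28438 differed from mt-Nd3 at 1 of 345 bases (T3C, counted from the first base of mt-Nd3). Gm29216 matched mt-Co1 at 486 of 492 bases, and its 6 differences, counted from the first base of mt-Co1, were T1056A, C1057T, A1059G, A1060G, C1062A and A1066T. Cut into windows of 75 bases, 99.5% of the windows of mt-Co2, 99.5% of those of mt-Atp6, 99.9% of those of mt-Co3, 97.8% of those of mt-Nd3 and 98.7% of those of mt-Nd4l occurred in another annotated transcript. The share was 61.5% for mt-Nd4, 39.8% for mt-Co1, 5.71% for mt-Nd2, 1.66% for mt-Nd5 and 0% for mt-Nd1, mt-Cytb, mt-Nd6 and both ribosomal RNAs. It was also 0% for mt-Atp8, which lies between mt-Co2 and mt-Atp6. The matching gap between the copies on chromosome 1 is not an annotated transcript and was not searched.

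The 7 copies together took 0.493% ± 0.0380 of all counts, between 0.456% and 0.542%, which placed 2 of them among the 20 genes with the largest counts outside the mitochondrial genome. Gm28437 took 0.165% ± 0.0190 of all counts, against 0.0210% ± 0.00620 for mt-Co3. Gm29216 took 0.136% ± 0.00594, Gm28661 0.0957% ± 0.00568 and Gm10925 0.0695% ± 0.00704. The mt-Co3 level was also the least even of the mitochondrial protein genes: 188 CPM in replicate 1, 339 in replicate 2, 187 in replicate 3, 176 in replicate 4 and 167 in replicate 5. How the authors' counting treated reads that fit several places is not stated in the labels, so the listed levels of these genes and of their copies are uncertain, and the part of the copies in these levels was not tested. Respiratory chain levels below are therefore given for nuclear subunits.

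**Figure D1:**
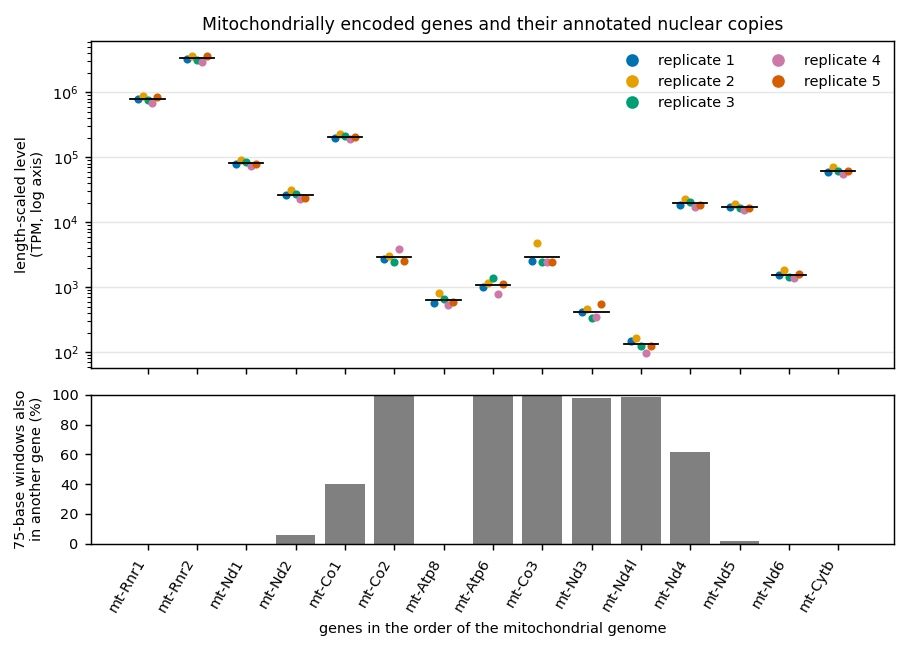
Upper panel, length-scaled level (TPM, log axis) of the 2 ribosomal RNA and 13 protein genes of mitochondria, in genome order, with 1 point per wild type library and a line at the mean. Lower panel, percentage of each gene's 75-base windows that occur in another annotated transcript. The stretch from mt-Co2 to mt-Nd4l is low in all 5 libraries, between 131 and 2930 TPM on average, and in it only mt-Atp8 shares no window.

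Outside the mitochondrial genome, counts were concentrated in sarcomere genes. Titin (Ttn, chr2:76703980-76982547 on mm10), the giant spring of the sarcomere, took 9.40% ± 1.01 of the non-mitochondrial counts, the largest share of any gene. The top 10 genes took 18.9%, the top 100 took 35.6% and the top 1000 took 63.5%, and 374 genes together reached 50%. Ttn stood at 35252 CPM in replicate 1, 35694 in replicate 2, 34608 in replicate 3, 35602 in replicate 4 and 44051 in replicate 5. Replicates 1 to 4 lay close together and replicate 5 lay above them, with a coefficient of variation (CV, SD over mean) of 10.6% over 5 libraries and 1.40% without replicate 5. The merged exons of Ttn are 116825 bases long, and per length it stood at 3460 ± 484 TPM.

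Per length the order of the contractile genes was different. Cardiac actin, Actc1, was the highest, with 29480, 27605, 30864, 35081 and 32866 TPM in replicates 1 to 5. The alpha myosin heavy chain Myh6 (chr14:54941921-54966927), the fast motor of the adult mouse heart, had 18033, 15525, 15559, 15988 and 17063 TPM. The ventricular regulatory light chain Myl2 had 13754, 15482, 16074, 14815 and 12734 TPM. The ranges of Myh6 and Myl2 overlapped, whereas every Actc1 value lay above both. This order rests on merged exons of 6726, 1950 and 1618 bases for Myh6, Myl2 and Actc1. Their longest transcripts are 6113, 889 and 1473 bases, so among these the place of Myl2 depends most on the length used. The ventricular essential light chain Myl3 (9521 ± 350 TPM), the inhibitory troponin subunit Tnni3 (8193 ± 563), the calcium-binding troponin subunit Tnnc1 (6951 ± 118), tropomyosin Tpm1 (6266 ± 259) and the myosin-binding protein Mybpc3 (4548 ± 320) came next. Their order also depends on the length used. Merged exons are 2044, 2063 and 6485 bases for Myl3, Tnni3 and Tpm1, and their longest transcripts are 1125, 912 and 2890 bases. Among titin and Z-disc genes, the LIM protein Fhl2 (4198 ± 620 TPM) and the titin cap Tcap (3699 ± 660 TPM) ranked with Ttn.

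Together, the 63 contractile genes took 19.3% ± 0.840 of the non-mitochondrial counts: 18.9% in replicate 1, 18.7% in replicate 2, 18.8% in replicate 3, 19.3% in replicate 4 and 20.7% in replicate 5. The titin and Z-disc list held 11.3% ± 1.02, the thick filament 4.71% ± 0.173 and the thin filament 3.30% ± 0.152. Replicate 5 was high through Ttn: without Ttn the contractile share was 9.90% ± 0.269 and replicate 5 was the lowest, at 9.57%. Without replicate 5 the mean contractile share with Ttn was 18.9%. Of the 63 members, 27 had a CV under 10%, and 4 had a CV over 50%: the atrial genes Myl7, Myl4 and Mybphl and the fast skeletal troponin Tnnt3.

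Most of the contractile families listed were led by 1 cardiac member. Myh6 made up 98.0% ± 0.0921 of the summed TPM of 7 listed myosin heavy chains, and it was at least 144-fold above the slow chain Myh7 in every library. These 2 genes share sequence (15.5% of the windows of Myh6 and 19.7% of those of Myh7 occur elsewhere), so the Myh7 value of 99.7 ± 20.8 TPM is uncertain. Tnni3 held 99.9% ± 0.0490 of the troponin I family, Tnnt2 98.7% ± 0.232 of troponin T, Mybpc3 96.5% ± 2.00 of the myosin-binding proteins C, Actn2 95.5% ± 0.494 of the alpha-actinins, Myl3 95.2% ± 1.96 of the essential light chains, Tpm1 94.3% ± 0.862 of the tropomyosins and Actc1 90.5% ± 1.76 of the actins. Myl2 held 84.2% ± 6.31 of the regulatory light chains. That share was lowest, 73.8%, in replicate 1, in which the atrial light chain Myl7 reached 3858 TPM, against 540 to 2006 TPM in the other 4 libraries.

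A few sarcomere families had no clear leader. The M-band proteins Myom1 (945 ± 35.3 TPM) and Myom2 (806 ± 129 TPM) stood near each other, and Myom1 was 1.01-fold above Myom2 in the library where they were closest. The muscle filamin Flnc (278 ± 36.0 TPM) led the ubiquitous Flna (236 ± 31.5 TPM) in 4 of 5 libraries, and their ranges overlapped. The natriuretic peptides, hormones released by stretched heart muscle, differed most between hearts. Nppa stood at 8325, 1686, 1856, 2404 and 2604 TPM in replicates 1 to 5 and Nppb at 376, 618, 980, 539 and 1813 TPM. Nppa led Nppb in every library, by 22.1-fold in replicate 1 and 1.44-fold in replicate 5. For Nppa, 48.8% of its windows also occur in the transcript Gm13054, so its level is uncertain.

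**Figure D2:**
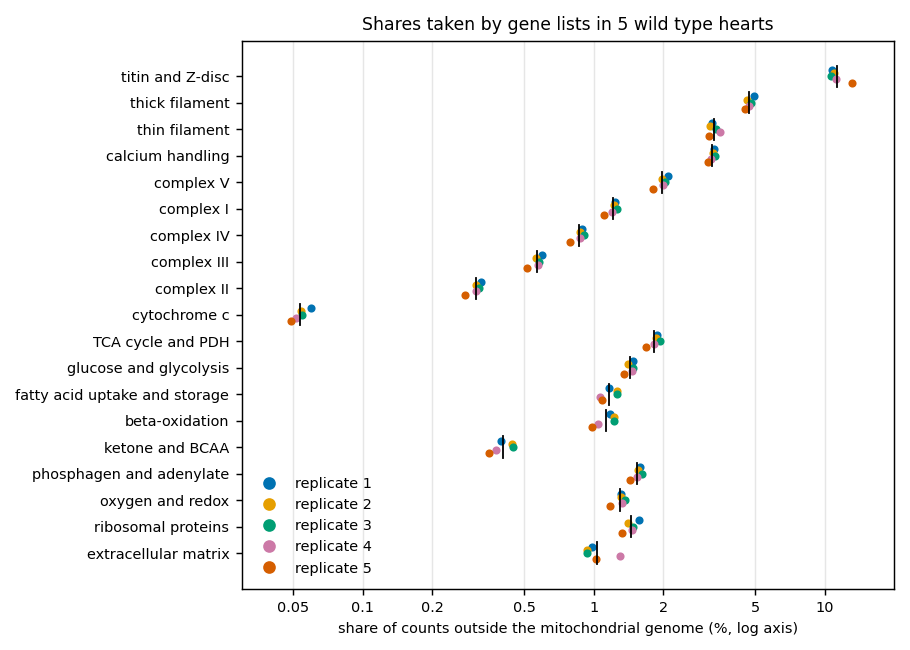
Share of the counts outside the mitochondrial genome (percent, log axis) taken by 19 gene lists in each of the 5 wild type libraries (points, coloured by replicate), with a vertical line at the mean. Titin and Z-disc genes hold 11.3% on average, with replicate 5 highest at 13.1%, and replicate 5 has the lowest share for complexes I to V.

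Calcium handling genes took 3.25% ± 0.0846 of the non-mitochondrial counts, with a range of 3.12% to 3.33%. The sarcoplasmic reticulum calcium pump Atp2a2 led, with 10488, 10336, 10394, 9809 and 10202 TPM in replicates 1 to 5, and held 99.9% of its family. Its inhibitor phospholamban, Pln, had 8578, 10409, 9661, 9011 and 8268 TPM, and the ranges of pump and inhibitor overlapped. The level of Pln is uncertain, since 58.7% of its windows occur in the transcript Gm47644. The atrial inhibitor Sln stood at 145 ± 119 TPM, from 31.4 TPM in replicate 5 to 341 TPM in replicate 1. The release channel Ryr2 (774 ± 81.8 TPM) made up 99.8% of the ryanodine receptors, the store protein Casq2 (2125 ± 141 TPM) 95.7% of the calsequestrins, the junction protein Jph2 94.4% of the junctophilins and the sodium-calcium exchanger Slc8a1 99.4% of its family.

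Ion channel families were more mixed than contractile ones. The L-type calcium channel Cacna1c held 69.8% ± 3.39 of 6 listed channel genes, the pacemaker channel Hcn2 80.3% ± 2.33 of 3, and the ventricular gap junction protein Gja1 63.4% ± 4.22 of 5. Among inward rectifier potassium channels the KATP channel subunit Kcnj11 (112 ± 12.1 TPM) and the acetylcholine-gated channel Kcnj5 (106 ± 13.3 TPM) led in 3 and 2 libraries, with overlapping ranges. Adrb1 made up 67.1% ± 7.89 of the listed beta-adrenergic receptors.

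The 85 nuclear genes of the respiratory chain took 4.98% ± 0.263 of the non-mitochondrial counts. The values were 5.20%, 4.99%, 5.17%, 4.98% and 4.54% in replicates 1 to 5, lowest in replicate 5. ATP synthase (complex V) held 1.98% ± 0.107, complex I 1.21% ± 0.0605, complex IV 0.867% ± 0.0458, complex III 0.566% ± 0.0323, complex II 0.308% ± 0.0186 and cytochrome c 0.0537% ± 0.00402. Scaled by length, they summed to 122338 ± 3083 TPM, near the 135292 ± 3113 TPM of the 63 contractile genes and above the 80806 ± 3401 TPM of the 113 fuel genes.

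The catalytic core of ATP synthase led the nuclear chain genes. Its alpha subunit Atp5a1 stood at 7374, 7040, 7140, 7039 and 6679 TPM, and its beta subunit Atp5b at 6038, 5807, 5908, 5941 and 5754 TPM. Every Atp5a1 value lay above every Atp5b value, but this order rests on merged-exon lengths of 3135 and 4237 bases. Their longest transcripts are 2674 and 1916 bases. Without length correction Atp5b was higher, at a mean of 2295 CPM against 2035 CPM. In complex IV, the subunits typical of heart and skeletal muscle were high: Cox7a1 (5584 ± 503 TPM), Cox6a2 (5403 ± 381 TPM) and Cox8b (4065 ± 274 TPM), next to the ubiquitous Cox6b1 (4735 ± 121 TPM) and Cox4i1 (3903 ± 120 TPM). Cox6a2 made up 91.3% ± 0.807 of its pair with the liver form Cox6a1, Cox8b 82.3% ± 1.70 of its pair with Cox8a, and Cox7a1 69.5% ± 2.31 of its family, so the muscle form led in all 3 families and in all 5 libraries. The testis form Cox6b2 stood at 4.00 ± 0.940 TPM.

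In complex I the highest nuclear subunit was Ndufb9 (2643 ± 76.1 TPM), in complex III Uqcr11 (3199 ± 50.4 TPM) and in complex II Sdhd (1956 ± 76.7 TPM). The 3 genes for the c ring of ATP synthase encode one and the same mature protein, and were led by Atp5g3 with 50.8% ± 1.69, ahead of Atp5g1. Without length correction Atp5g1 led. The chain genes were among the steadiest of the lists: 77 of 85 had a CV under 10%, their median CV was 7.06%, and the largest was that of Cox6b2, at 24.9%. They also moved together between libraries. Replicate 5 had the lowest CPM for 70 of the 85 chain genes (82.4%), against 27.8% of all genes of at least 1 CPM. Replicate 5 was also lowest for 68 of 85 ribosomal protein genes.

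Fuel genes took 5.96% ± 0.359 of the non-mitochondrial counts, with 6.09%, 6.19%, 6.34%, 5.77% and 5.44% in replicates 1 to 5. The TCA cycle with pyruvate dehydrogenase held 1.83% ± 0.0956, glucose use and glycolysis 1.44% ± 0.0556, fatty acid uptake and storage 1.16% ± 0.0932, beta-oxidation 1.13% ± 0.110, and ketone and branched-chain amino acid use 0.403% ± 0.0416. Beta-oxidation was highest in replicates 2 and 3 and lowest in replicates 4 and 5, with 1.18%, 1.22%, 1.22%, 1.04% and 0.985% in replicates 1 to 5.

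The fatty acid binding protein Fabp3, which carries fatty acids through the cytosol, was the highest fuel gene, with 11912, 12454, 12291, 10672 and 10036 TPM. It held 96.4% ± 0.763 of its family, and 26.0% of its windows occur in copies. The fatty acid importer Cd36 stood at 2417 ± 254 TPM and lipoprotein lipase, Lpl, at 1111 ± 137 TPM. Acsl1, which activates long-chain fatty acids to CoA esters, made up 89.5% ± 0.709 of its family. In beta-oxidation the last-step thiolase Acaa2 (2748 ± 225 TPM) and the very long-chain dehydrogenase Acadvl (1986 ± 122 TPM) led, followed by Acadm (1274 ± 132 TPM) and Acadl (1268 ± 91.9 TPM), which did not differ beyond their spread.

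The carnitine shuttle, which brings long-chain fatty acids into mitochondria, was listed lower. Cpt2 (chr4:107903981-107923610), its inner membrane enzyme and the gene deleted elsewhere in the series, stood at 427, 448, 409, 375 and 278 TPM, and was lowest in replicate 5. The outer membrane enzyme Cpt1a stood at 58.1, 11.0, 52.0, 59.6 and 59.9 TPM, so replicate 2 lay far below the other 4. Cpt1b, the muscle form, was listed at only 23.6 ± 1.46 TPM. However, 92.1% of its windows occur in the transcript Gm44502, so its listed level is uncertain and the order of Cpt1a and Cpt1b cannot be read from these counts. Usp30, the mitochondrial deubiquitinase that was the other deleted gene of the series, was low and even, at 9.15 ± 0.419 TPM with a CV of 3.01% in CPM.

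In the TCA list, malate dehydrogenase Mdh1 (3745 ± 200 TPM) and isocitrate dehydrogenase Idh2 (2698 ± 267 TPM) were among the highest. Aldoa (3635 ± 104 TPM) and the muscle enolase Eno3 (3629 ± 212 TPM) led glycolysis. The isoforms used for glucose were those of muscle: Slc2a4, the insulin-responsive glucose transporter, held 90.1% ± 1.01 of 8 listed transporters, Pfkm 91.8% of the phosphofructokinases, Pgam2 97.5% of its pair, Eno3 97.7% of the enolases, and the heart-type lactate dehydrogenase Ldhb 79.0% ± 1.67 of its family. Of the windows of the minor members Eno1 and Pgam1, 65.4% and 40.6% occur in other transcripts, so the shares of Eno3 and Pgam2 are uncertain. Hexokinase was shared by Hk2 (60.9% ± 3.45) and Hk1. Pdk4, which blocks pyruvate dehydrogenase when fat is used, held 61.5% ± 6.84 of its family and stood at 544, 484, 730, 818 and 771 TPM, lowest in replicates 1 and 2. Oxct1, which allows ketone bodies to be burned, was the highest ketone gene (1764 ± 93.4 TPM).

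Energy transfer genes stood in the range of the sarcomere genes. The ATP/ADP carrier of heart mitochondria, Slc25a4, stood at 10986, 10429, 10714, 10322 and 9757 TPM and made up 92.9% ± 0.726 of its pair with Slc25a5. The mitochondrial creatine kinase Ckmt2 (7192 ± 280 TPM) was between 2.02- and 2.27-fold above the cytosolic muscle form Ckm (3344 ± 124 TPM) in the 5 libraries. Myoglobin, Mb, the oxygen store of muscle, was second only to Actc1 by mean TPM among all nuclear protein-coding genes, with 25018, 26866, 27275, 25855 and 23565 TPM. The order of Mb and Actc1 rests on merged exons of 1492 and 1618 bases, and their longest transcripts are 1104 and 1473 bases. Windows shared with the transcript Gm49540 made up 32.4% of Mb.

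Across all 79 families fixed for this description, 74 had at least 2 listed members, and 69 of these had the same leading member in all 5 libraries. The leader held over 90% of the family in 28 families and under 50% in 10, and it was at least 2-fold above the second member in every library in 49. In 8 families the ranges of the first and second members overlapped, among them filamin, inward rectifier channels, CaMKII, natriuretic peptides, CPT1, uncoupling proteins and type IV collagen. Among uncoupling proteins Ucp3 led in 3 libraries and Ucp2 in 2. Other leaders were Ppara (71.9% ± 3.14) of the PPAR fatty acid sensors, Ppargc1a (74.1% ± 4.49) of the PGC1 coactivators, Esrra (69.2% ± 1.64) of the ERR receptors, Gata4 (63.7% ± 3.64) of the GATA factors, Acacb (95.6% ± 0.969) of the acetyl-CoA carboxylases and Prkaa2 (83.1% ± 0.620) of the AMPK catalytic subunits. Some minor members share many windows with other transcripts, such as Acaca (47.4%), Actg1 (54.5%) and Slc25a5 (27.9%). The shares of their leaders Acacb, Actc1 and Slc25a4 are therefore uncertain. No leader changed when any single library was left out.

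**Figure D3:**
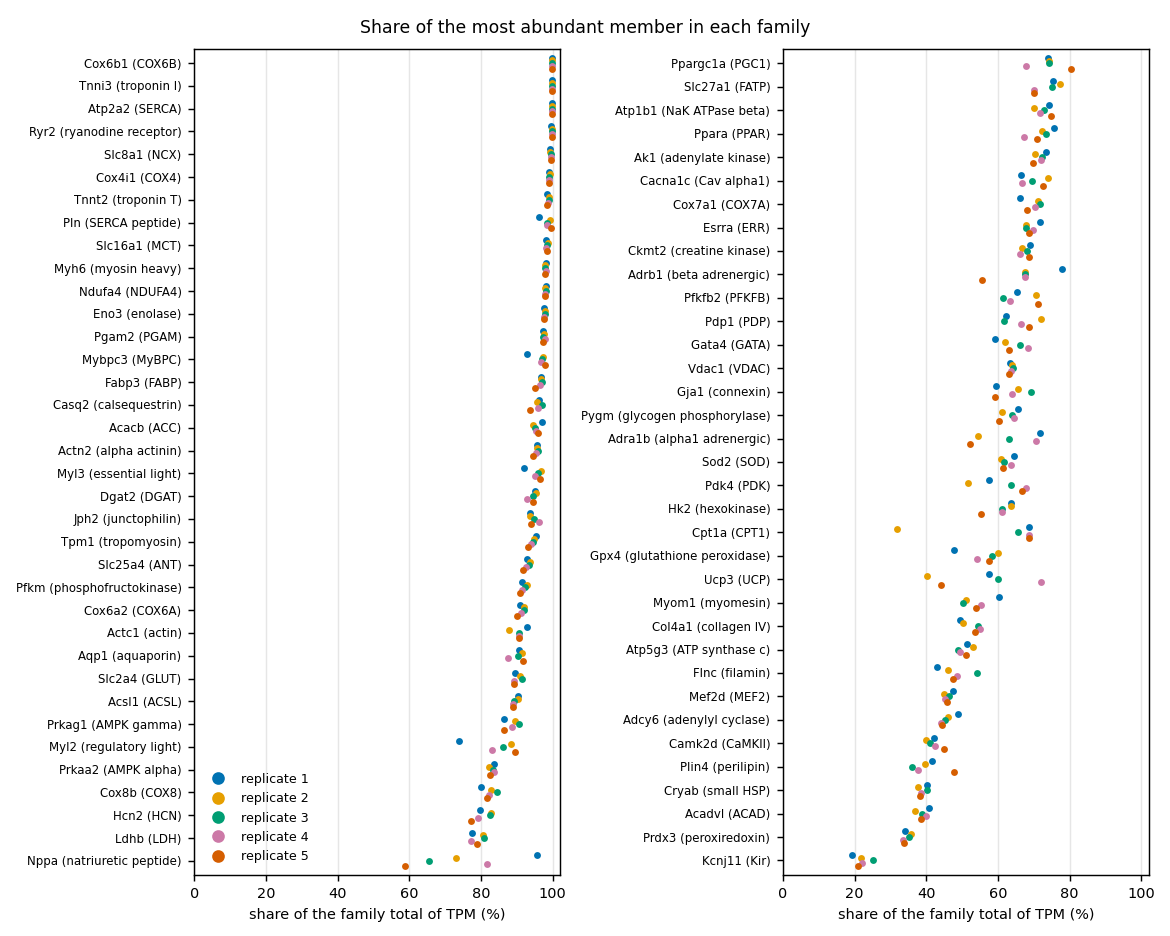
Share of the summed TPM of a family that its most abundant member takes (percent), for 71 of the families with at least 2 listed members, ordered by mean, with 1 point per wild type library. Troponin I, the calcium pump and most sarcomere families lie above 90% in all libraries, while replicate 2 sits apart for Cpt1a. Replicate 1 is the lowest library for Myl2 and the highest for Nppa.

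Most genes varied little between the 5 hearts. Among 12145 genes with a mean of at least 1 CPM, the median CV was 9.22%, against a median of 3.53% from counting error alone, and 6673 genes had a CV under 10%. The common biological coefficient of variation estimated with edgeR was 14.7%. A CV over 50% was found for 159 genes, 1.31% of those examined, and over 100% for 11. Of the 159, 67 (42.1%) were highest in replicate 5 and 42 (26.4%) in replicate 1. Of all genes of at least 1 CPM, replicates 1 to 5 were highest for 19.8%, 18.0%, 18.7%, 17.5% and 26.0%, and lowest for 19.0%, 18.1%, 17.0%, 18.1% and 27.8%. Without replicate 5 the count was 105, of which 82 were among the 159, and without replicate 1 it was 144, of which 114 were.

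**Figure D4:**
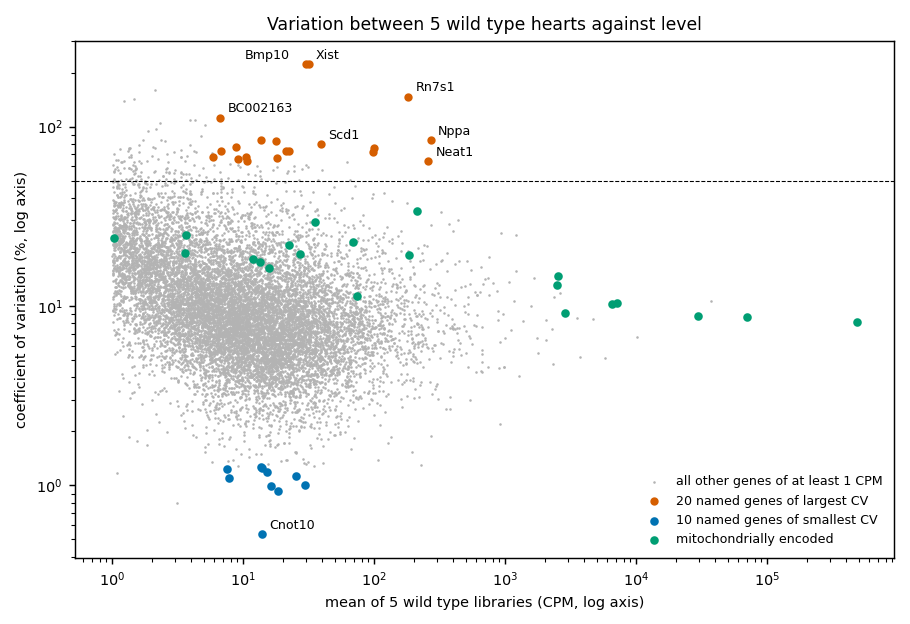
Coefficient of variation over the 5 wild type libraries (percent, log axis) against mean level (CPM, log axis) for 12145 genes of at least 1 CPM, with a dashed line at 50%. The 20 genes of largest variation among those of at least 5 CPM, without predicted genes, lie above the line, from Neat1 at 64.1% to Xist at 223%, and mitochondrially encoded genes lie below it.

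The largest variation was in a sex-linked transcript. Xist, the RNA that silences 1 X chromosome in female cells, had 158 CPM in replicate 1 and 0.0782, 0.0683, 0.0849 and 0.109 CPM in replicates 2 to 5. The Y-linked genes ran the other way: Ddx3y had 0.150 CPM in replicate 1 and between 44.5 and 57.5 CPM in the other libraries, and Eif2s3y, Kdm5d and Uty had 8, 2 and 5 counts in replicate 1. Replicate 1 was the highest library for Xist and the lowest for the 4 Y-linked genes. The labels do not give the sex of the animals.

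The same library had the highest atrial genes. The 12 atrial markers summed to 1443 CPM in replicate 1, 300.3 in replicate 2, 417 in replicate 3, 488 in replicate 4 and 295 in replicate 5. Of the 12, 11 were highest in replicate 1, against 19.8% of all genes of at least 1 CPM. Bmp10, a growth factor made by right atrial muscle, had 149 CPM in replicate 1 and 0.339, 0.0683, 0.106 and 0.0907 CPM in the others, or 26, 9, 15 and 5 counts. Nppa had 673 CPM in replicate 1 against 134 to 197 CPM. For Myl7, Myl4, Sln and Mybphl replicate 5 was lowest, replicate 2 next, and replicates 3 and 4 lay between these and replicate 1. Myl7, for example, had 213, 52.1, 90.8, 108 and 27.9 CPM. The atrial kinase-like gene Sbk3 had 20.2 CPM in replicate 1 and 3.10 to 8.21 CPM in the others. Without replicate 1 the CV of Nppa was 17.6% that of Sbk3 41.7% and that of Myl4 47.5%, while Myl7 (52.0%), Sln (58.5%) and Mybphl (50.4%) stayed above 50%.

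Blood and vessel markers moved in part with these libraries. For comparison, replicates 1 to 5 were highest for 19.8%, 18.0%, 18.7%, 17.5% and 26.0% of all genes of at least 1 CPM. The 7 red cell genes listed summed to 237 CPM in replicate 1 and to between 88.9 and 126 CPM in the others, and all 7 were highest in replicate 1. Hbb-bs, a beta globin, had 129 CPM in replicate 1 and 47.9 to 65.1 CPM elsewhere. Of the 12 smooth muscle and pericyte genes, 5 were highest in replicate 2, 3 in replicate 3, 4 in replicate 4 and none in replicates 1 and 5. The most variable of them, the smooth muscle gene Cnn1, had 3.87 and 5.43 CPM in replicates 1 and 2, and 0.926, 1.75 and 0.562 CPM in replicates 3 to 5. Myh11 had 56.9 and 57.5 CPM in replicates 1 and 2, and 20.1, 29.2 and 21.4 CPM in replicates 3 to 5. Acta2 was highest in replicate 4, at 177 CPM, and the pericyte marker Rgs5 was even, at 841 ± 24.8 TPM. Extracellular matrix genes were highest in replicate 4 for 24 of 33 members, among them the fibrillar collagen Col3a1 with 544 CPM against 260.2 to 378 CPM.

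Genes of the circadian clock differed between the libraries. Arntl, which encodes the clock activator BMAL1, had 1.55, 0.691, 7.66, 10.6 and 0.707 CPM in replicates 1 to 5, and its partner Npas2 had 1.26, 0.925, 2.86, 4.46 and 1.56 CPM. Repressor and output genes that this activator is known to drive followed another order. Per2 had 21.5, 24.2, 8.50, 4.63 and 25.6 CPM, Per3 had 35.4, 38.5, 11.4, 9.66 and 44.2 CPM, and Dbp had 34.1, 55.2, 15.0, 10.2 and 41.6 CPM. In replicates 3 and 4, Arntl and Npas2 were higher and Per2, Per3 and Dbp lower than in the others, 5 genes shown after their values were seen. Of the 17 clock genes listed, 6 had a CV over 50%, against 1.31% of all genes, and replicate 4 was the lowest library for 11, against 18.1% of all genes. Nfil3 (13.6%), Bhlhe40 (14.3%) and Nr1d1 (19.2%) varied less. The labels give no time of collection.

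The promoters of these genes are known for the E-box, CACGTG, bound by the BMAL1 activator, and the D-box, TTATGTAA, bound by the Dbp protein family. The 250 bases before the most upstream RefSeq start were searched on both strands for both motifs, which do not overlap each other, for the 15 of 17 clock genes that have a promoter sequence in RefSeq's table. The E-box letters occurred in 5 of them (Bhlhe41, Ciart, Cry1, Per1 and Tef) and in 6.04% of all 27025 promoters of the same length. Dbp and Per3 had no E-box in these bases, and Per2 was not among the 15 genes searched. The D-box letters occurred in Per3 only, and in 0.862% of all promoters. The 2 promoters with more than 1 match are shown, with the matches in capitals (GRCm38.p6, minus strand, 5′ to 3′).
Ciart, chr3:95882229-95882478: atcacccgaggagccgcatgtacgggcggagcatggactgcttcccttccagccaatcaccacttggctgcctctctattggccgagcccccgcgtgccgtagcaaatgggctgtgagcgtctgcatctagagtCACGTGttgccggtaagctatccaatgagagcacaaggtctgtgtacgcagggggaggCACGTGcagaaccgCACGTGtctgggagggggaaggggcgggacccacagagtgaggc
Per3, chr4:151044666-151044915: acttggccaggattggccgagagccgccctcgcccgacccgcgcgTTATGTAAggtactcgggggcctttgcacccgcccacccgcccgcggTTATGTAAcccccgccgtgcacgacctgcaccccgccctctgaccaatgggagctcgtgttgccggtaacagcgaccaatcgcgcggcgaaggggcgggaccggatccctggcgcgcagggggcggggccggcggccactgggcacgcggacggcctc
Ciart, a repressor of the clock, had 2.70, 10.4, 2.10, 0.559 and 7.87 CPM, and a CV of 88.8%.

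Of the 9 adipocyte genes listed, 7 were highest in replicate 2, against 18.0% of all genes of at least 1 CPM. Cfd was highest in replicate 3 and Pparg in replicate 5, and 3 of the 9 (Plin1, Cidec and Ucp1) averaged under 1 CPM. Adipoq, the fat cell hormone adiponectin, had 0.525, 2.58, 2.22, 0.948 and 0.381 CPM, and the carbonic anhydrase Car3 had 2.81, 10.9, 9.17, 4.35 and 1.94 CPM. Ucp1, the uncoupling protein of brown fat, had 5, 219, 136, 1 and 0 counts in replicates 1 to 5. The lipogenic desaturase Scd1 had 14.3, 88.3, 50.2, 28.9 and 13.6 CPM. Of the 9 adipocyte genes, 6 had a CV over 50%, against 1.31% of all genes of at least 1 CPM. The 3 adipocyte genes under 1 CPM lie outside the genes that gave 18.0% and 1.31%, so these comparisons are not at the same level. Cidea (90.8 TPM) and Thrsp (59.4 TPM) had CVs of 12.5% and 15.1%. Replicates 2 and 3 held 15.4 and 14.3 CPM of the pseudogene BC002163, against 1.10 to 1.26 CPM in the others, and 59.6% of its windows occur in Ndufs5.

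Replicate 3 was highest for 3 genes of antigen presentation. H2-Aa, a chain of the class II molecule, had 7.90, 17.3, 38.8, 16.1 and 10.8 CPM, and H2-Ab1 and H2-Eb1 had 22.1 and 22.5 CPM in replicate 3 against at most 10.6 CPM elsewhere. Without replicate 3 the CVs of these 3 genes were between 33.9% and 38.7%. Macrophage markers did not follow them, summing to 260.3 CPM in replicate 3 and 281 CPM in replicate 5. Slc41a3, a magnesium transporter, was high in replicates 3 and 4 (33.6 and 45.6 CPM) and between 10.3 and 11.3 CPM in the others.

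Some single genes also stood apart in replicate 2. Rn7s1, a copy of the signal recognition particle RNA, had 659 CPM there and 42.5 to 84.6 CPM elsewhere, and all of its windows occur in Rn7s2. Cpt1a had 7.75 CPM in replicate 2 against 38.1 to 41.5 CPM. Angptl4, an inhibitor of lipoprotein lipase that is induced by fatty acids, had 8.76, 1.29, 5.24, 14 and 4.23 CPM. Txnip, which responds to glucose, had 159 CPM in replicate 2 and 266 to 414 CPM elsewhere. Cpt1a, Angptl4 and Txnip belong to the list of 19 fasting, PPAR and glucocorticoid genes, of which 9 were lowest in replicate 2, against 18.1% of all genes.

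Replicate 5 carried the widest set of high genes. Neat1, a nuclear long non-coding RNA, had 170, 203, 168, 193 and 551 CPM, so that its CV was 64.1% with replicate 5 and 9.34% without it. Of 177 genes annotated as unverified transcripts (class TEC), 145 (81.9%) were highest in replicate 5, against 26.0% of all genes of at least 1 CPM, and together they had 691 CPM there against 356 to 463 CPM. Of 25 sense-intronic genes 16 were highest there. Fkbp5, which is induced by glucocorticoids, had 48.5 CPM in replicate 5 against 10.4 to 19.1 CPM. Of the 20 cell cycle genes listed, 17 were highest in replicate 5, with Mki67 at 19.6 CPM against 4.89 to 8.17 CPM, while the replication genes Mcm2 (5.24%) and Pcna (3.62%) had small CVs.

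Depth and gene length moved with that library. Replicate 5 had the fewest counts. Genes were cut into 5 equal groups by length, and deviations from the 5-library mean were taken on the log2 scale. The median deviation in replicate 5 was -0.07 for the shortest group and 0.06 for the longest. The values were 0.02 and -0.02 in replicate 1 and 0.04 and -0.03 in replicate 3. Titin, the TEC class and Neat1 were high in it while the short respiratory chain and ribosomal protein messages were low, and the part of depth, gene length or RNA quality in these differences was not tested.

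**Figure D5:**
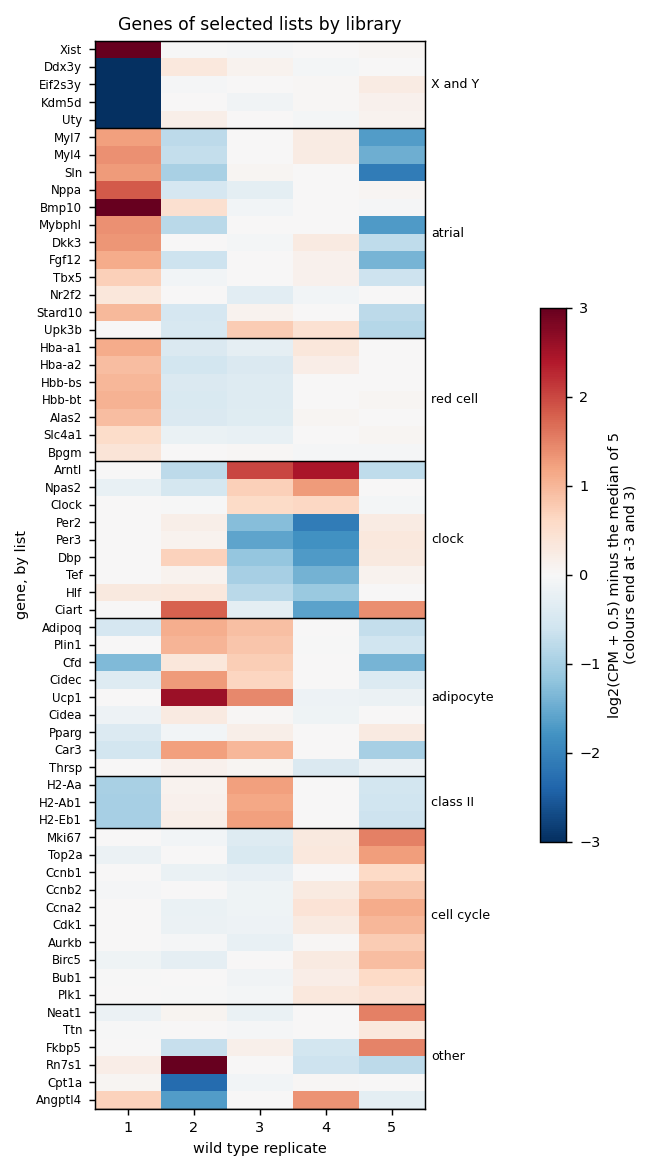
Level of genes from selected lists in each wild type library, as log2(CPM + 0.5) minus the median of the 5 libraries (red above, blue below). Replicate 1 is red for Xist, atrial and red cell genes, replicates 3 and 4 are red for Arntl and blue for Per2, Per3 and Dbp, replicates 2 and 3 are red for Adipoq and Ucp1, and replicate 5 is red for Neat1 and cell cycle genes.

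The steadiest genes were of middle level. Among 8357 genes of at least 5 CPM, Cnot10, a subunit of the CCR4-NOT deadenylase complex, had the smallest CV of the named genes, 0.535%. Bbx (0.925%), Dnajc14 (0.991%), Fto (1.01%), Hax1 (1.10%), Pfdn1 (1.13%), Brms1l (1.23%), Cdkal1 (1.25%) and Hcfc2 (1.26%) followed. All of these lay below the CV that counting error alone gives at their level, which was 2.91% for Cnot10.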

How the data were processed

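RNA sequencing of 5 wild type mouse hearts was described. The authors deposited unnormalised whole-number read counts for each gene, in 1 table with 5 other hearts that were not used. Per the submitters' processing notes, bcl2fastq, HISAT2, the mm10 build and DESeq2 1.42.0 were used. Neither labels nor notes name the counting program, annotation, strand setting or read length, so overlapping, antisense and near-identical genes are uncertain. No row had fewer than 151 counts over 10 libraries, and genes outside the table were not analysed here. 20 symbols had become dates, and 5 were repeated.

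Totals ran from 55905339 to 132762776 counts. CPM used TMM factors (0.941 to 1.09, edgeR 4.0.16, R 4.3.3). Lengths came from GENCODE M21 (GRCm38), which matched 13716 genes. No test was run, since 1 group was described. CVs used genes of at least 1 CPM. In simulated counts for 12145 genes, 79.0% of 200 genes with a true CV of 80% passed 50%. None of the others did, but all of them were given a true CV of 15%. Genes of intermediate variation were not simulated, so this cannot show how many of these pass 50% by chance. No pair of libraries agreed within counting noise (lowest chi-square per gene 33.4). Shared windows of 75 bases were searched among GENCODE M21 transcripts. Promoters came from RefSeq (GRCm38.p6).

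Genes were named by rule: the 20 largest non-mitochondrial shares, the mitochondrial genes, the first and second of each family, up to 4 highest and the most variable of each list, the 20 largest and 10 smallest CVs above 5 CPM without predicted genes, 5 sex-linked genes, Cpt2 and Usp30. A few genes that the rule selects are not reported here. Others were named after their values were seen, among them list members shown by library and the pseudogenes. The members and lists were chosen with earlier results of these data known. Alternatives were leaving out each library, other scalings, filters and length corrections.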

Additional observations from a re-analysis of the deposited data

Results flagged for a closer look

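Of 111 values examined over the 5 libraries, 19 had 1 library apart from the other 4 by more than chance gives in about 5% of groups. The values included the 20 genes of largest CV in these same data, so the rate of 5% does not hold for this set. Some values also overlap, such as Ttn and the lists that hold it. It was replicate 1 for 10, replicate 5 for 6, replicate 2 for 2 and replicate 4 for 1. No explanation was weighed. In replicate 1, Xist stood at 158 CPM, and Ddx3y (0.150), Eif2s3y (0.0999), Kdm5d (0.0250) and Uty (0.062 CPM) were low. The same library was high for the summed atrial markers (1443 CPM), Bmp10 (149 CPM), Nppa (673 CPM), Myh6 (11327 CPM, others 9598 to 10051) and the summed red cell markers (237 CPM). Replicate 5 was high for the titin and Z-disc share (13.1%, others 10.6% to 11.1%), Ttn (44051 CPM), the summed cardiomyocyte markers (71122 CPM, others 62978 to 64292, a list that holds Ttn), Neat1 (551 CPM), Fkbp5 (48.5 CPM) and Mki67 (19.6 CPM). Replicate 2 was high for Rn7s1 (659 CPM) and mt-Co3 (339 CPM, others 167 to 188). Replicate 4 was high for the extracellular matrix share (1.30%, others 0.934% to 1.03%).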

How the results depend on the processing

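No paired analysis was possible because 1 group was described and the results come from no test. Of 70 alternative values for the main results, 55 stayed within the spread between libraries, or within 1.5 times for counts, and 15 moved. Restricted to protein-coding genes, the mitochondrial share was 12.1%, and the contractile share 20.4%. After division by gene length, the shares were 78.1% for mitochondrial genes, 70.6% for mitochondrial rRNA, 10.6% for contractile, 9.59% for respiratory chain and 6.33% for fuel genes. Genes with a CV over 50% numbered 401 with no filter and 35 at 10 CPM or more, and between 105 and 197 when 1 library was left out. The biological coefficient of variation was 15.8% with library totals only, 15.9% with no filter, 8.17% as the DESeq2 median, and between 13.7% and 15.3% when 1 library was left out. The leading family member changed in 8 families without length correction and in 3 with the longest transcript. Orders between genes of different families were read with merged-exon lengths only. Of 148 alternative leading shares, 92 moved beyond the spread. Of 220 alternative CVs of the 20 most variable genes, 11 fell to 50% or less, each without 1 library. Depth was lowest in replicate 5, and low genes such as Ucp1 are limited by counting error.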

Other observations

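Several lists not described above also differed by library. Histone genes were highest in replicate 5 for 31 of 57 and lowest in replicate 3 for 40 of 57. Heat shock genes were highest in replicate 3 for 10 of 13, with Hspa8 at 613 CPM there against 465 to 531 CPM. Immediate early genes, which respond within minutes to handling and stress, were lowest in replicate 1 for 10 of 21, and Nr4a3 had 1.64, 5.83, 4.31, 1.65 and 5.64 CPM in replicates 1 to 5. Mesothelial genes, those of the heart's outer lining, were highest in replicate 3 for 8 of 9. Interferon-stimulated genes were highest in replicate 4 for 9 of 15. Ribosomal protein genes were highest in replicate 1 for 69 of 85. For comparison, each library was highest for between 17.5% and 26.0% of all genes of at least 1 CPM, replicate 3 was lowest for 17.0% and replicate 1 for 19.0%.

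The ketone enzyme gene Bdh1 had 6.02, 10.7, 16.6, 6.49 and 5.93 CPM, with a CV of 50.5%, the only fuel gene of the 113 listed that passed 50%. The coactivator gene Ppargc1a had 129 CPM in replicate 5 against 65.3 to 76.0 CPM in the others. The ribosomal repeat Rn18s-rs5 had 1554, 964, 1319, 1383 and 834 CPM.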
